A study of Mus musculus with 2 samples.

Results

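Keratins are the proteins of the intermediate filaments of epithelial cells, and the mouse intestine was examined here for every gene whose symbol is Krt followed by a number and, where present, a letter. The rule found 55 such genes among the 40879 gene symbols of the deposited tables, 28 of type I and 27 of type II. It takes the gene name only and no measured value, and it leaves out keratin-associated protein genes.

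A keratin filament is built from heterodimers, each of an acidic type I chain and a basic type II chain, and a chain without a partner is degraded, so the types are made in matched sets. Simple epithelia such as the intestinal lining hold Krt8, Krt18, Krt19 and, in differentiated cells, Krt20. Stratified epithelia use Krt5 and Krt14 in the basal layer and Krt1 and Krt10 (epidermis) or Krt4 and Krt13 (internal squamous mucosa) above it, while the hair shaft and its inner root sheath have sets of their own.

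The data were 1 RNA library of intestine from WT mice and 1 from mice that carry 1 disrupted copy of ERAP1, an aminopeptidase of the endoplasmic reticulum that trims peptides for antigen presentation. The background of all the mice was C57BL/6, and they were described in the methods as germ-free and kept in a specific pathogen-free facility, being 8 weeks old at the start. They had plain water for 28 days and no colitis treatment. Equal amounts of RNA from 3 mice were pooled for each library. The ERAP1+/- mice descend from 1 embryonic stem cell clone with the tm1a allele, crossed with a Cre-expressing strain that the methods do not name, so that exons flanked by loxP sites were deleted. The libraries were made with a kit that reads the 3' ends of polyadenylated transcripts (QuantSeq 3' FWD), so 1 transcript gives about 1 read whatever its length. The labels do not give the region of the intestine, while the paper names colonic tissue in its abstract and intestine tissue in its methods.

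In all, 8114826 reads were counted for WT and 8907515 for the other library. For Erap1, 229 reads were counted in WT and 2 in the other library, 0.730% of the WT level (95% interval 0.0878 to 2.67), which is less than 1 intact copy would leave, so the second library is called the library labelled ERAP1+/- throughout. With a kit for 3' ends, these reads would lie outside the deleted exons, but their positions were not examined. Xist had 1635 and 6451 reads, and 4 Y-linked genes together had 612 and 46, so the pools may hold different proportions of each sex, which cannot be told apart from genotype. The 4 intestinal markers Cdx1 (1080 and 1772 reads), Cdx2 (86 and 172), Vil1 (1597 and 1543) and Car1 (13814 and 9366) were present in both libraries.

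Values are given as reads, as CPM (reads scaled to a common library size that was first adjusted with TMM, a trimmed mean of ratios between libraries) or as log2(CPM + 1), and a difference is the library labelled ERAP1+/- minus WT on that last scale. With 1 library per genotype no difference has a replicate check and no p-value is given. Intervals are exact 95% intervals that cover counting error only and are too narrow for differences between mice. A count of 0 was taken to allow up to 3 reads, which is worth 0.386 CPM for WT and 0.322 CPM for the other library. A fold given as at least some value for such a gene rests on this floor. The exact 95% limit is lower, 179.5-fold against 222-fold for Krt81 and 95.8-fold against 119-fold for Krt25. A gene was taken as past the level where log2(CPM + 1) was at least 4 in 1 or both libraries, and as lower or higher where the difference was more than 2-fold, that is, beyond 1 on the log2 scale.

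The 5 keratins of simple epithelium were at 43.3% to 139% of the WT level in the library labelled ERAP1+/-, and every other class, by its summed reads, was at 11.8% or less. All keratins together had 40188 WT reads and 22709 in the other library, which is 0.495% and 0.255% of the counted reads. The 5 simple keratins had 25767 and 21958 reads, a level of 71.2% of WT (95% interval 69.9 to 72.5). The other 50 genes had 14421 and 751 reads, 4.35% of WT (4.04 to 4.68), or 23.0-fold lower (21.4 to 24.8). Their share of all keratin reads was 35.9% in WT and 3.31% in the library labelled ERAP1+/-. Less RNA per cell and fewer cells of a type cannot be told apart in RNA from whole tissue.

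Of the 55 genes, 24 were past the level. In the library labelled ERAP1+/-, 20 of the 24 were more than 2-fold lower, against 317 of all 8013 genes past the level (3.96%). None was more than 2-fold higher, against 111 of the 8013 (1.39%). The remaining 4 were Krt7, Krt8, Krt18 and Krt19, all simple keratins. The 20 were equally divided between the types, with 10 of 12 type I and 10 of 12 type II genes lower. At the edge of this rule, Krt23 passed the level with 4.05 and was lower by 1.11 on the log2 scale, and Krt80 with 3.95 stayed just outside. A wider set, the 39 genes with at least 10 reads in 1 library, held 34 that were more than 2-fold lower, against 5.92% of all genes with as many reads. The exceptions were the same 4 simple keratins and Krt36. The median difference over these 39 was -2.64, and over all 16142 genes with at least 10 reads it was 0.00. Among the 39, 17 had no read in the library labelled ERAP1+/-. The share of all genes with no read there was not counted, so this number has no background beside it. No read was counted for Krt2, Krt9, Krt40 and Krt74 in either library, and 12 genes had between 1 and 9 reads in the library where they had more.

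**Figure D1:**
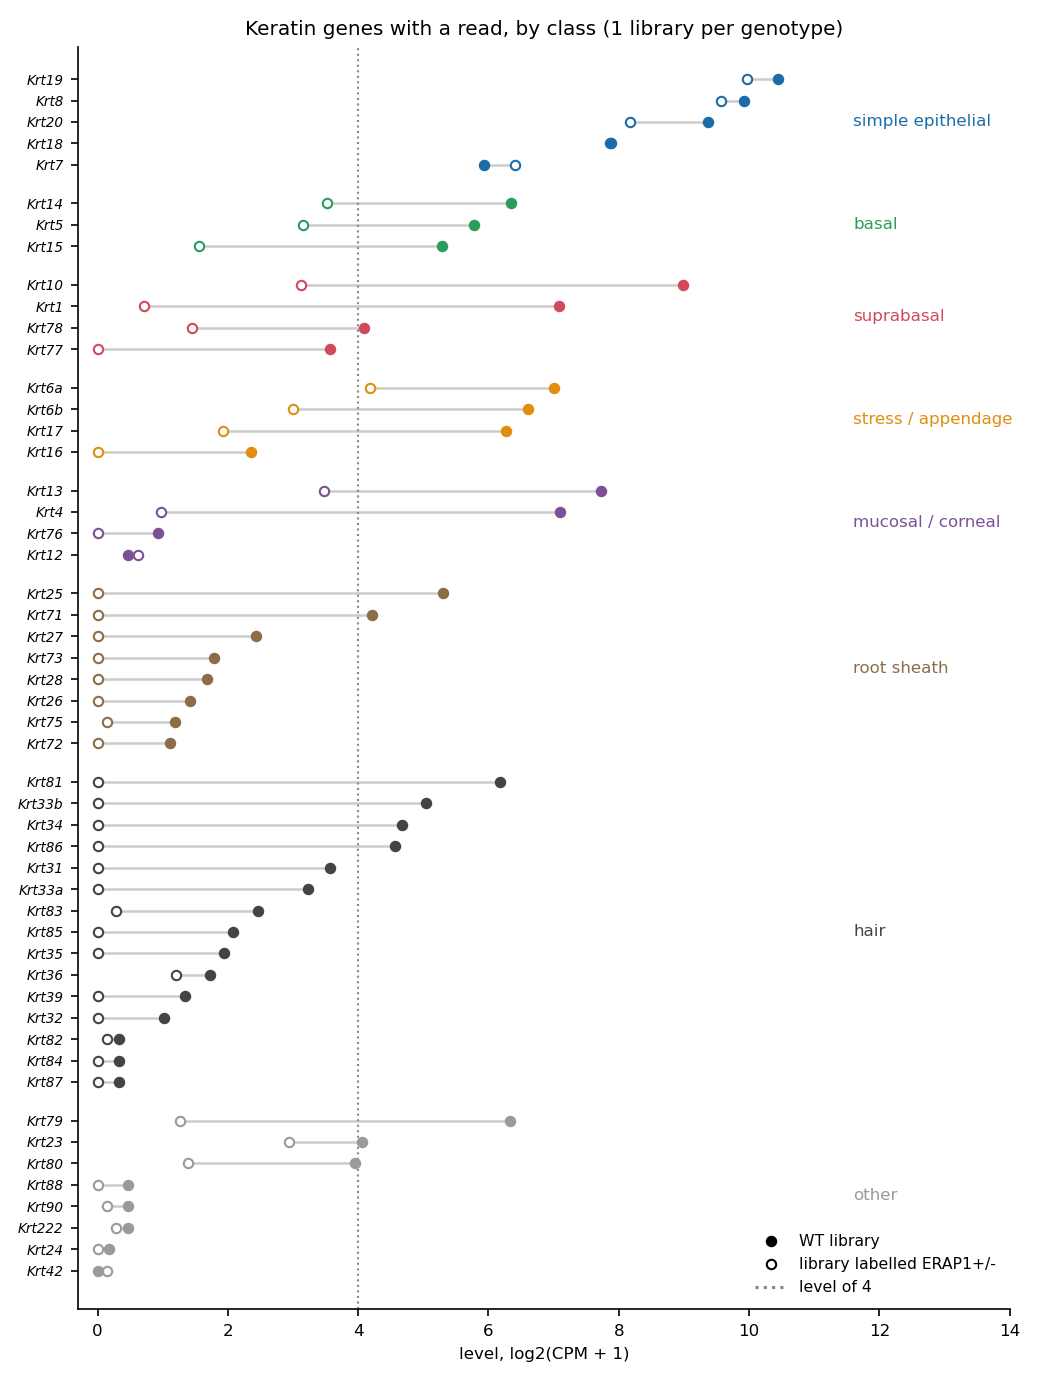
Level of each of the 51 keratin genes with a read, as log2(CPM + 1) on the horizontal axis, grouped by class, with filled circles for the WT library, open circles for the library labelled ERAP1+/- and a dotted line at the level of 4. Both circles of each simple keratin lie to the right of the line, Krt20 with the widest gap of the 5. In the other classes every filled circle past the line has its open circle further left, nearest for Krt23 and at 0 for the 6 root sheath and hair genes.

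The promoters of 6 genes, 1 from each of 6 classes, are printed because the classes divide the levels so sharply. Each is the 100 bases before the RefSeq start on GRCm38.p6, 5' to 3' on the strand of the gene, with TATAAA (the core of the TATA box, which positions the start of transcription) in capitals.
Krt20 (simple), chr11:99438154-99438253, minus strand: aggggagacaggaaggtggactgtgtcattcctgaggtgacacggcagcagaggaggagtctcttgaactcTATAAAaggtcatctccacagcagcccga
Krt5 (basal), chr15:101712906-101713005, minus strand: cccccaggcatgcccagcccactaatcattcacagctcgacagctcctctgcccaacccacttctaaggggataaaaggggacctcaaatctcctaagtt
Krt10 (suprabasal), chr11:99389365-99389464, minus strand: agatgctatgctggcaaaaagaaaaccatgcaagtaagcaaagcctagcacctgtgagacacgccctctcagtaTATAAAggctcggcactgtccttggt
Krt13 (mucosal), chr11:100121567-100121666, minus strand: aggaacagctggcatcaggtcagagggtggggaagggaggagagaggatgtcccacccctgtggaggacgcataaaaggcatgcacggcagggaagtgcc
Krt25 (inner root sheath), chr11:99322952-99323051, minus strand: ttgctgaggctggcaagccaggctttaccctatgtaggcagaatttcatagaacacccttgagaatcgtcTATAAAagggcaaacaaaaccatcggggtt
Krt33b (hair), chr11:100029869-100029968, minus strand: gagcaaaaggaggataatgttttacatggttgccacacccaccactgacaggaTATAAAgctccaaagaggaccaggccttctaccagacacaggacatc
TATAAA began 29 bases before the start in Krt20, 26 in Krt10, 30 in Krt25 and 47 in Krt33b, and these letters are not in the windows of Krt5 and Krt13. A match is a description of the sequence and not evidence of a site in use.

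Promoters were held for 36 of the 55 genes. Within 250 bases before the start, TATAAA on either strand was in 17 of the 36 (47.2%), against 14.3% of 27025 promoters of all genes. On the strand of the gene and beginning between 45 and 16 bases before the start, it was in 13 of 36 (36.1%), against 2.57% of all, a window that was set after the sequences had been seen. By class this held for 1 of 4 simple, 0 of 2 basal, 1 of 5 suprabasal, 2 of 3 mucosal or corneal, 5 of 8 root sheath and 4 of 9 hair keratins. Of the printed genes, Krt20 and Krt10 are the only simple and suprabasal keratins with it. Krt13 is the only mucosal or corneal keratin without it, so these 3 do not stand for their classes. Some of the RefSeq starts used lie inside the GENCODE gene. That of Krt14 is at 100206030, where the gene begins at 100207548, and that of Krt7 at 101412403, where the gene begins at 101411043. On both strands, the Sp1 letters GGGCGG were in 2 of 36 (5.56%) against 35.4% of all promoters, CCAAT in 15 (41.7%) against 37.5%, the AP-2 letters GCCNNNGGC in 5 (13.9%) against 15.4%, and the AP-1 letters TGANTCA in 1 (2.78%) against 7.82%. TTTATG, which the intestinal factor Cdx2 can bind, was in 16 (44.4%) against 12.4%, 8 of them hair keratins and none of them simple keratins. Read on the other strand this motif is CATAAA, which differs from TATAAA in its first base.

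The keratins of simple epithelium pair Krt7 or Krt8 (type II) with Krt18, Krt19 or Krt20 (type I). Krt8, their main type II chain in the intestine, had 7561 WT reads and 7022 in the library labelled ERAP1+/-, 77.6% of the WT level (75.1 to 80.2). Krt18, its classical partner, had 1806 and 2194 reads, 102% of WT (95.3 to 108). With TMM scaling it was the only one of the 5 whose interval holds 100%. Its difference of 0.02 became 0.15 with total-count scaling and 0.34 when values were centred on the median of a list of intestinal epithelial genes. Krt19, the smallest keratin, which lacks the tail domain, had 10776 and 9290 reads, or 72.0% of WT (70.0 to 74.1). The differences of these 3 genes ran from -0.47 to 0.02.

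Krt20, a keratin of differentiated surface cells of the gut, was the only simple keratin more than 2-fold lower, a call that was lost at -0.89 when values were centred on the median of a list of intestinal epithelial genes. It had 5156 WT reads and 2674 in the other library, 43.3% of WT (41.3 to 45.4). Krt7, a keratin of ducts and glands that is sparse in the intestine, was the only one whose interval lay above 100% with TMM scaling. It had 468 and 778 reads, or 139% of WT (124 to 156), a difference of 0.47. The levels that were kept differed between Krt7 and Krt20 by a factor of 3.21 (2.83 to 3.64), between Krt18 and Krt20 by 2.34 (2.17 to 2.53) and between Krt19 and Krt20 by 1.66 (1.57 to 1.76). Of the simple keratin reads, Krt20 took 20.01% in WT and 12.2% in the other library, Krt18 took 7.01% and 9.99%, and Krt7 took 1.82% and 3.54%. Krt8 took 29.3% and 32.0%, and only for Krt19 (41.8% and 42.3%) did the counting intervals of the shares overlap.

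Among the 15 intestinal epithelial genes of a list given beside the keratins, 14 were past the level, 1 was lower and 1 higher, where the shares of all genes past the level were 3.96% and 1.39%, with a median of -0.32. The summed level was 15037 CPM in WT and 14007 CPM in the library labelled ERAP1+/-, 93.2% of WT. Muc2 alone gave 1547 and 3541 CPM of these sums, so the summed level does not stand for the list as a whole. Car4, a carbonic anhydrase of surface colonocytes like those that carry Krt20, had 15163 and 8391 reads and was lower by 1.11. Muc2, the gel-forming mucin of goblet cells, had 12020 and 32939 reads and was higher by 1.19. Epcam (9812 and 9413 reads), an adhesion protein of simple and glandular epithelia, and Cdh1 (18810 and 16678), the cadherin of epithelial junctions, had differences of -0.32 and -0.43, close to that of Krt8 (-0.37). Not all members of the list were close to Krt8. Like Muc2, Cdx2 (0.69), Cdx1 (0.45) and Fcgbp (0.30) were above 0, and Lgals4 (-0.01) and Hnf4a (-0.15) differed least. The part of cell composition in the values of Krt20 and Krt7 was not tested.

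The 3 basal keratins, which mark the dividing layer of stratified epithelia, were all more than 2-fold lower, with 1337 reads in WT and 188 in the library labelled ERAP1+/-, or 11.8% of WT (10.03 to 13.7). Krt5, the type II chain, had 418 and 73 reads (14.6% of WT, 11.2 to 18.7). Krt14, its type I partner, had 623 and 97 reads (13.0%, 10.4 to 16.1). Their intervals overlap. Krt15, a basal keratin also used as a marker of hair follicle bulge cells, had 296 and 18 reads (5.08%, 2.97 to 8.17), and the level kept by Krt14 was 2.56 times that kept by Krt15 (1.502 to 4.58).

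The suprabasal keratins, made once epidermal cells leave the basal layer, were lower still. Krt10 had 3922 WT reads, more than all 3 basal keratins together, and 72 in the other, 1.53% of WT (1.197 to 1.94) or 65.2-fold lower (51.7 to 83.5). Krt1, its type II partner, had 1049 and 6 reads, 0.478% of WT (0.175 to 1.04) or 209-fold lower (95.8 to 572). Krt77, a relative of Krt1 that was under the level, had 84 reads in WT and none in the other library, at least 33.5-fold lower. Krt78 was nearer to the basal group with 124 and 16 reads, 10.8% of WT (5.98 to 18.2), and its kept level was 22.6 times that of Krt1 (8.16 to 71.3). For the class, 5179 and 94 reads gave 1.52% of WT (1.22 to 1.86). The basal class kept 7.75 times as much of its WT level as the suprabasal class (5.97 to 10.1), and Krt5 kept 9.51 times as much as Krt10 (6.66 to 13.6).

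Krt6a, Krt6b, Krt16 and Krt17 are found in hair follicles, nail and some mucosae and are induced in the epidermis by wounding. As a class they had 2371 reads in WT and 251 in the library labelled ERAP1+/-, 8.84% of WT (7.73 to 10.1). Krt6a had 996 and 160 reads, so that with a log2(CPM + 1) of 4.19 it was the only keratin outside the simple class above 4 in the library labelled ERAP1+/-. Krt6b had 750 and 65 reads and Krt17 had 593 and 26. Krt6a kept 13.4% of WT (11.3 to 15.9), Krt6b 7.24% (5.53 to 9.34) and Krt17 3.66% (2.37 to 5.42), and none of the 3 intervals overlaps another. Krt16, under the level, had 32 reads in WT and none in the other library, at least 12.8-fold lower.

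The mucosal keratins Krt4 (type II) and Krt13 (type I) pair above the basal layer of squamous linings such as the esophagus and the anal canal. Krt13 had 1631 reads in WT and 94 in the library labelled ERAP1+/-, 4.81% of WT (3.87 to 5.93). Krt4 had 1056 and 9 reads, 0.712% of WT (0.325 to 1.36). The level kept by Krt13 was 6.76 times that kept by its partner (3.39 to 15.3). Krt76, of the hard palate, had 7 reads in WT and none in the other, and Krt12, of the cornea, had 3 and 5. Together the 4 genes of this class kept 3.35% of WT (2.73 to 4.06), and the basal class kept 3.51 times as much (2.73 to 4.53).

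Krt25 to Krt28 (type I) and Krt71 to Krt74 (type II) form the filaments of the inner root sheath, the sleeve that moulds the growing hair, and Krt75 belongs to the companion layer around it. The 9 genes together had 535 reads in WT and 1 in the library labelled ERAP1+/-, a read of Krt75, so the class kept 0.156% of WT (0.00395 to 0.874). Krt25 had 297 reads in WT and none in the other, at least 119-fold lower, and Krt71 had 136 and none, at least 54.3-fold lower. These were the 2 genes past the level. The other members with a WT read had between 9 and 34 reads there, Krt27 the most. Krt74 had no read in either library.

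The 16 keratins of the hair shaft, cysteine-rich chains that are crosslinked in the hard hair fibre, had 1443 reads in WT and 15 in the library labelled ERAP1+/-, 0.868% of WT (0.485 to 1.44). Krt81 (type II) had 555 reads in WT and none in the other library, at least 222-fold lower. Krt33b (247), Krt34 (190) and Krt86 (176 reads) were also at 0 in the library labelled ERAP1+/-, at least 98.6-fold, 75.8-fold and 70.2-fold lower. Krt31 (84), Krt33a (65), Krt85 (25), Krt35 (22), Krt39 (12) and Krt32 (8 reads) were under the level and likewise had no read there. Krt36 stood apart, with 18 reads in WT and 12 in the library labelled ERAP1+/-, 55.7% of WT (24.5 to 122), an interval that holds 100%. It gave 12 of the 15 reads of the class in that library, and Krt83 (35 and 2) and Krt82 (2 and 1) gave the rest. Hair keratins with close copies can share reads, and 7.75% of the 75-base windows in the last 500 bases of the Krt81 transcripts recur in Krt83, Krt86 or Krt87. In the last 500 bases of Krt33b, Krt34 and Krt86 no window recurs in another transcript, although windows from the ends of Krt31, Krt33a and Krt81 recur elsewhere in their transcripts, and Krt85 could not be measured in this way. Without Krt81 and the other 5 genes that share a window, hair keratins were 1.87% of WT keratin reads in place of 3.59%.

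Of the keratins outside these classes, Krt79, of the duct that joins the sebaceous gland to the hair canal, had 616 and 13 reads, 1.76% of WT (0.933 to 3.04). Krt23 had 121 and 62 reads, 42.8% of WT (31.0 to 58.6), close to the 43.3% of Krt20, with a ratio of 0.988 between the kept levels (0.713 to 1.36). Krt80, a keratin found in many epithelia, was just under the level with 112 and 15 reads, 11.2% of WT (6.06 to 19.3). The other 5, Krt24, Krt42, Krt88, Krt90 and Krt222, had at most 3 reads in either library.

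**Figure D2:**
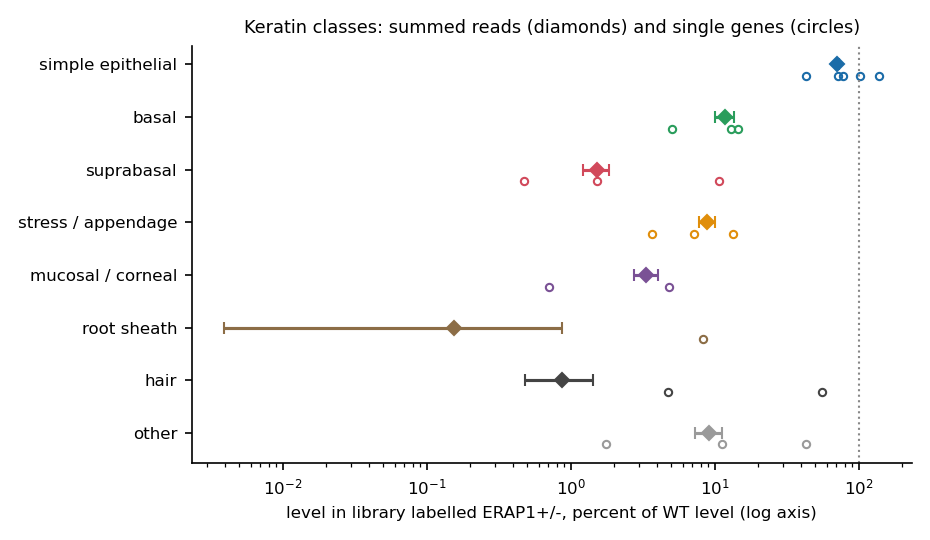
Level in the library labelled ERAP1+/- as a percentage of the WT level on a log axis, for the summed reads of each class (diamonds, with exact 95% counting intervals) and for single genes with at least 10 WT reads and at least 1 read in the other library (open circles). The diamonds run from 71.2% for the simple keratins through 11.8% for the basal and 8.84% for the stress keratins to 1.52% for the suprabasal, 0.868% for the hair and 0.156% for the root sheath keratins, and genes with no read in the library labelled ERAP1+/- have no circle.

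Type I and type II chains are needed in equal amounts, so the ratio of type II to type I reads was compared for known partners. The size of the library and the length of the genes drop out of the ratio of these ratios. For Krt5 and Krt14 the ratio was 0.671 in WT and 0.753 in the library labelled ERAP1+/-, a change by a factor of 1.12 whose interval holds 1 (0.796 to 1.58). Krt8 to Krt19 stood at 0.702 and 0.756, a factor of 1.08 (1.03 to 1.13). These 2 pairs kept their balance most closely. Krt8 to Krt18 was 4.19 and 3.20, a factor of 0.765 (0.712 to 0.821), and Krt8 to Krt20 was 1.47 and 2.63, a factor of 1.79 (1.69 to 1.90).

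Partners of the differentiated layers were less balanced, and there the type II gene was the lower one. For Krt1 and Krt10 the ratio was 0.268 in WT and 0.0833 in the library labelled ERAP1+/-, a factor of 0.312 (0.110 to 0.715). For Krt4 and Krt13 it was 0.648 and 0.0957, a factor of 0.148 (0.0653 to 0.295). The opposite held for Krt6a and Krt17, with 1.68 and 6.15, a factor of 3.66 (2.37 to 5.85), and for Krt5 and Krt15, with 1.41 and 4.06, a factor of 2.87 (1.65 to 5.22). For Krt71 with Krt25, and for Krt81 with Krt33b, both partners had no read in the library labelled ERAP1+/-, and no ratio can be given there.

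**Figure D3:**
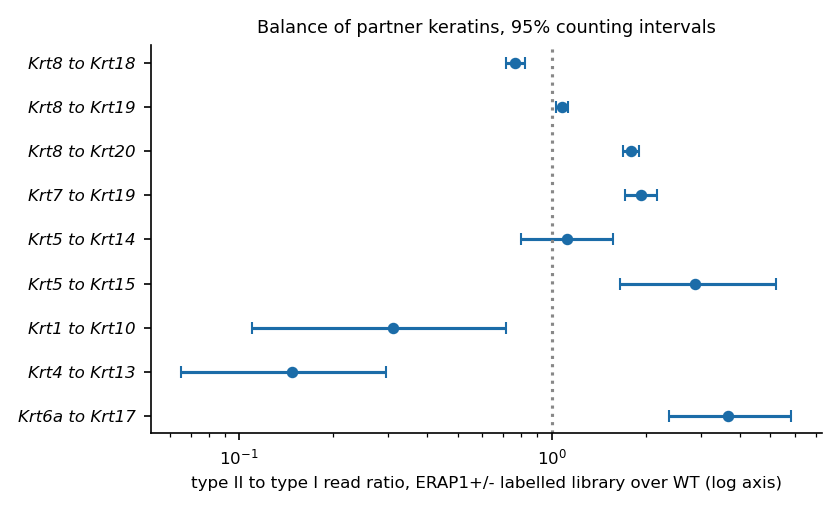
Ratio of type II to type I reads in the library labelled ERAP1+/- divided by the same ratio in WT, for 9 partner pairs, on a log axis with exact 95% counting intervals and a dotted line at 1. Only the interval of Krt5 to Krt14 crosses the line, Krt8 to Krt18, Krt1 to Krt10 and Krt4 to Krt13 lie to its left, and the other 5 pairs lie to its right.

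The keratin genes lie in a pair of clusters, placed here by GENCODE M21 on GRCm38. That on chromosome 11 holds 27 genes over 1.04 Mb (99232761 to 100269871), all of type I, and 10 of its 11 genes past the level were lower. That on chromosome 15 holds 27 genes over 0.685 Mb (101347444 to 102032027), the type II genes with the type I gene Krt18 at the end, and 10 of its 13 genes past the level were lower. Of all genes past the level, 3.96% were lower. Krt85 has no coordinates in the tables used here. Neighbouring genes could differ widely. Krt15 and Krt19 are 4.88 kb apart and kept 5.08% and 72.0% of WT, a factor of 14.2 (8.81 to 24.3). Krt80 and Krt7, with 40.9 kb between them at the other end of the chromosome 15 cluster, kept 11.2% and 139%, a factor of 12.4 (7.09 to 23.2). Krt78 and Krt8 are separated by 42.4 kb and kept 10.8% and 77.6%, a factor of 7.20 (4.26 to 13.0). Krt10 and Krt20, with Krt12 between them, differed by a factor of 28.3 (22.3 to 36.3).

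**Figure D4:**
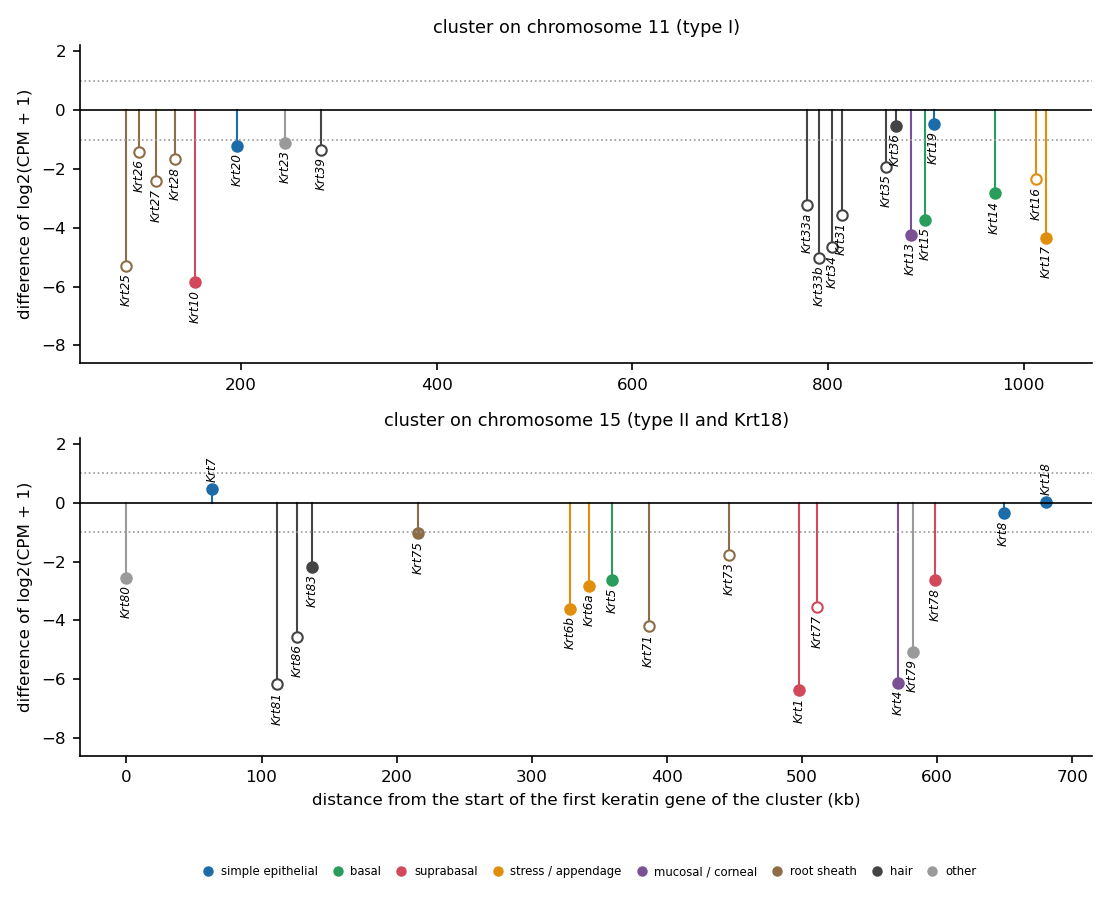
Difference of log2(CPM + 1), library labelled ERAP1+/- minus WT, against the distance in kb from the start of the first keratin gene of each cluster, for keratins with at least 10 reads over both libraries. Open circles mark genes with no read in the library labelled ERAP1+/- and dotted lines a 2-fold difference. Krt19, Krt8, Krt18, Krt7 and the hair keratin Krt36 lie within the dotted lines, and neighbours such as Krt15 and Krt78 lie far below.

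Keratin filaments are tied to desmosomes and to each other by plakin and armadillo proteins, and 13 genes of these and other keratin-linked proteins (Fam83h, Tchp and Fbf1) were listed. Of these, 11 were past the level, 3 were lower and none was higher (3.96% and 1.39% of all genes past the level), with a median of -0.69 and a summed level of 62.4% of WT. The 3 were Ppl (398 and 72 reads, -2.58), Pkp1 (228 and 95, -1.44) and Evpl (318 and 167, -1.15). Periplakin and envoplakin, the proteins of Ppl and Evpl, are precursors of the cornified envelope, and plakophilin 1 is the plakophilin of upper epidermal layers. Dsp, the desmoplakin that anchors keratin in all desmosomes, had 6168 and 4282 reads (-0.78), and Plec, which links keratin to hemidesmosomes, had 2767 and 2227 (-0.57). The smallest and the opposite differences were those of Eppk1 (789 and 803 reads, -0.23), Tchp (76 and 107, 0.21) and Fbf1 (35 and 66, 0.56).

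Markers of stratified epithelium other than keratins were also lower in the library labelled ERAP1+/-. Of 16 such genes, 13 were past the level, 10 were lower and none was higher (3.96% and 1.39% of all genes past the level), with a median of -3.19, and the summed level was 2958 CPM in WT and 398 CPM in the library labelled ERAP1+/- (13.5% of WT). Flg, filaggrin, had 7952 and 4 reads (-9.49), and Krtdap, a protein of differentiating keratinocytes, had 3681 and 15 (-7.51). Ivl, involucrin, had 151 reads in WT and none in the other, at least 60.3-fold lower, and Trp63, the master regulator of stratified epithelia, had 23 and none. Smaller differences were found for Itgb4 (951 and 699 reads, -0.70) and Serpinb5 (366 and 284, -0.61). Both Itgb4 and Perp (2089 and 1260 reads, -0.98) are also made in the intestinal epithelium. The part of stratified tissue in the samples in these differences was not tested.

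Of 12 hair follicle genes, 7 had at least 10 reads over both libraries and 1 was past the level and lower (3.96% of all genes past the level), so the list rests on few reads. That gene, Tchh, the trichohyalin of the inner root sheath, had 507 and 14 reads (-4.73). S100a3, of the hair cuticle, had 57 and 4 reads, and Tchhl1 (36 reads in WT) and Padi4 (11) had none in the library labelled ERAP1+/-. Hoxc13, which drives hair keratin genes, had 9 reads in WT and none in the other. The median over the 7 genes was -2.06, with Crym (11 and 18 reads, 0.28) the only one above 0. The summed level was 89.8 CPM in WT and 5.27 CPM in the library labelled ERAP1+/-.

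Of 10 regulators of keratins in stratified epithelium, 4 were past the level and none of these was more than 2-fold lower or higher (3.96% and 1.39% of all genes past the level). The median over the 9 with at least 10 reads was -0.67. Under the level, Tfap2a (60 and 2 reads, -2.84) and Tfap2c (42 and 2, -2.40), the AP-2 factors of epidermis, were more than 2-fold lower. So were Gata3 (71 and 25 reads, -1.46) and Trp63 (23 and 0), but not Zfp750 (92 and 66, -0.67) or Grhl3 (4 and 2, -0.32). Klf4, which is also made in the differentiated cells of the intestine, had 20240 and 15474 reads (-0.65). Maf (320 and 400 reads, 0.06) and Cebpa (203 and 242, -0.01) differed least.

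**Figure D5:**
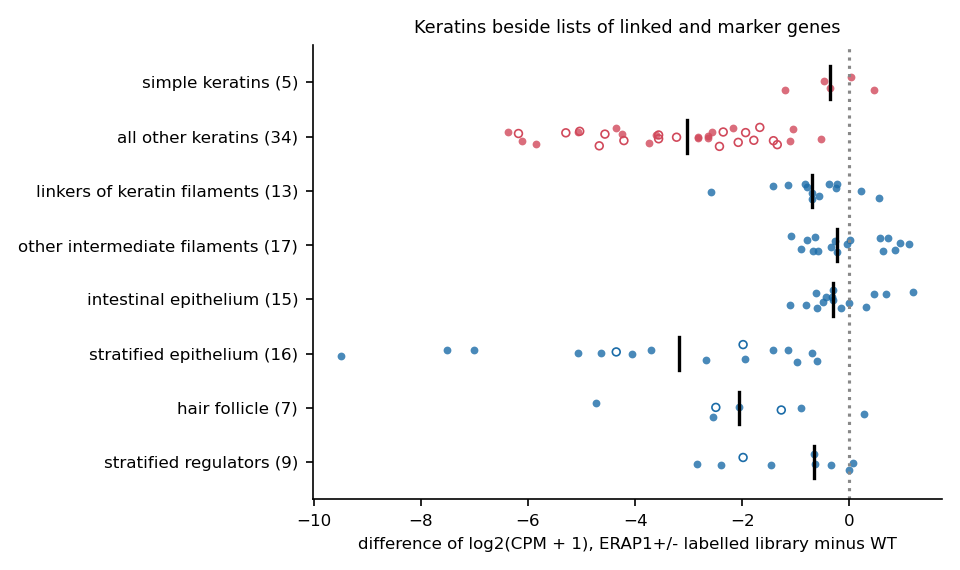
Difference of log2(CPM + 1), library labelled ERAP1+/- minus WT, for each gene with at least 10 reads over both libraries in the simple keratins, all other keratins and 6 gene lists, with the number of genes in parentheses. Open circles are genes with no read in the library labelled ERAP1+/- and vertical bars are medians, which lie at -0.37 for simple keratins, -0.32 for the intestinal epithelium, -3.03 for all other keratins and -3.19 for the stratified epithelium.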

How the data were processed

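For each genotype, intestinal RNA from 3 mice without treatment was combined into 1 library and read as single ends of 75 bases. The values the authors deposited are raw counts, that is, the reads on each of 40879 gene symbols, not normalized. The sources name both STAR with HTSeq and Bowtie2 with RSEM, on GRCm38, and which made the counts is not stated, nor is the strand setting, so reads of antisense genes (such as Gm11940 over Krt10 and Gm49428 over Krt6a) may not be separated. The totals were 8114826 reads for WT and 8907515 for the library labelled ERAP1+/-. PCR reads carry no molecular identifiers, so intervals and the floor of 3 reads for a count of 0 cover counting error only.

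TMM factors (0.958 and 1.04) came from edgeR 4.0.16 (R 4.3.3), and CPM was taken on the library sizes so adjusted before the log2(CPM + 1) step. Ratios have exact conditional binomial 95% intervals and shares Clopper-Pearson intervals (scipy 1.17.1). A quasi-likelihood test cannot be fitted to 1 library per genotype. The rule for lower and higher genes and the intervals were checked on simulated counts that held counting error only, which cannot show how they behave with differences between mice. Keratins were assigned to classes by the place each is known for. Medians take genes with at least 10 reads over both libraries. With genes at 0 in the library labelled ERAP1+/- set at 3 reads, the median was -2.83 for all but the simple keratins, -4.51 for suprabasal, -1.38 for root sheath and -2.82 for hair keratins, against -3.03, -4.71, -1.79 and -3.23 as counted.

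Members past a log2(CPM + 1) of 4 are named with their reads, others with reads or ranges, and list genes by the largest and smallest differences, those at 0 and defining markers, with a few more named after their values were seen. The members, classes and lists were chosen with earlier results of these data known. Promoters were taken from RefSeq on GRCm38.p6, coordinates and transcript ends from GENCODE M21. The alternatives were DESeq2 1.42.0 size factors, total-count scaling, centring on the intestinal epithelium list, a pseudocount of 0.1, other filters, a 4-fold threshold and, chosen after seeing the data, leaving out members that share a 75-base window with another transcript.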

Additional observations from a re-analysis of the deposited data

How the results depend on the processing

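No keratin past the level and no class median changed direction under the alternatives run for it, and no list median did under DESeq2 size factors, total-count scaling or a pseudocount of 0.1. The lists were not centred on the intestinal epithelium list, which adds 0.32 to each difference. No paired analysis was possible because there is 1 library for WT and 1 for ERAP1+/-. The count of 20 lower keratins was 36 with no filter, 34 for genes of 10 or more reads in 1 library, and 11 with a level of 6, since these test more or fewer genes. It was 20 with DESeq2 size factors and with a pseudocount of 0.1, 19 with total-count scaling, which left Krt23 at -0.999 and shifted all genes past the level by a median of 0.12, 18 centred on the intestinal epithelium list, which left Krt20 at -0.89 and Krt23 at -0.80, 18 at 4-fold and 19 without members that share a window. The count of higher keratins was 0 under each. The share of all genes that were lower was counted only for the level of 4 (3.96%) and for 10 or more reads in 1 library (5.92%). The counts under the other settings therefore have no background beside them.

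Class medians on the log2 scale moved as follows. Total-count scaling gave -0.24 for simple keratins, and centring on the intestinal list gave -0.050 for simple, -2.51 for basal and -2.90 for stress keratins. A pseudocount of 0.1, which enlarges the differences of genes with few reads, gave -6.39 for suprabasal, -4.25 for stress, -5.68 for mucosal, -4.67 for root sheath, -6.40 for hair and -3.08 for other keratins. Taking members with at least 1 read gave -2.59 for mucosal, -2.08 for hair and -0.40 for other keratins. Without members that share a window, the stress median was -3.61 and the hair median -2.13, and the shares of WT keratin reads were 65.4% for simple and 1.87% for hair keratins. For the lists, total-count scaling gave -0.19 for intestinal epithelium and -0.55 for stratified regulators, and a pseudocount of 0.1 gave -4.25 for stratified epithelium and -3.92 for hair follicle genes. The alternatives on protein identity were not run, because no protein sequences were used here. The root sheath and hair classes rest on 1 and 15 reads in the library labelled ERAP1+/-, which limits their order.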

Other observations

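Of 18 intermediate filament genes that are not keratins, 17 had at least 10 reads over both libraries, 7 were past the level, 1 was more than 2-fold lower and none was higher (3.96% and 1.39% of all genes past the level), with a median log2 difference of -0.23. The lower gene was Iffo2 (214 reads in WT and 115 in the library labelled ERAP1+/-, -1.10). Vim, the vimentin of mesenchymal cells, had 2497 and 2473 reads (-0.27), and the muscle filament genes Des (3149 and 2001, -0.91) and Synm (3453 and 2645, -0.64) stayed within 2-fold. The lamin genes Lmnb1 (346 and 417 reads, 0.01) and Lmnb2 (301 and 348, -0.05) differed least, and Lmna had 3046 and 2106 (-0.79).

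Several filament genes of neurons and glia had more reads in the library labelled ERAP1+/-, all under the level. Ina, an internexin of neurons, had 9 and 34 reads, 316% of the WT level (95% counting interval 148 to 748). Nefl, the light neurofilament chain, had 55 and 136 reads, 206% of WT (150 to 288), and Prph, the peripherin of peripheral neurons, had 31 and 74, 199% (130 to 314). Gfap, of enteric glia, had 16 and 33 reads, 172% with an interval that holds 100% (92.2 to 335), and Nefh had 6 and 16, 223% (82.8 to 695). The rise was not limited to neurons and glia, as the lens filament gene Bfsp1 had 45 and 95 reads, 176% (122 to 257). Nefm went the other way with 75 and 57 reads, 63.5% of WT (44.2 to 90.8). These genes were named after their values were seen.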
